A study of Mus musculus with 18 samples.

Results

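The genes described here are the 86 genes whose CRISPR guides were scarce in MC38 tumours grown in mice with and without an adaptive immune system. A pooled screen delivers many guide RNAs, each directing Cas9 to cut 1 gene, to a population of cells, and sequencing then counts the copies of every guide among the cells that remain. Each guide's reads were scaled to CPM, reads per 1000000 reads of its library, and the CPM was averaged over the C57BL/6 and Rag1-knockout libraries. A gene was kept when the median of its 4 guides was below 10 CPM. Of 4529 genes with 4 guides, 86 met this rule (1.90%), with 344 of the 18146 guides in the table. The genes were thus chosen by their guide abundance, and the guide levels below are a description of the genes chosen and carry no test.

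All samples came from MC38, a colon cancer line of the mouse that grows when implanted into C57BL/6 animals. For the screen, MC38 cells carrying the guide library were implanted into C57BL/6 wild-type mice (1 library) and into B6-Rag1-KO mice (1 library), which lack mature B and T cells. RNA was sequenced from control MC38 cells carrying wild-type Mbtps1 (3 libraries), Mbtps1-knockdown cells (3), control tumours (5) and Mbtps1-knockdown tumours (5), the tumours grown in wild-type C57BL/6 mice. The labels call the depletion of Mbtps1 a knockdown, whereas the series text calls that of the cultured cells a knockout, and neither the clones nor the number of mice behind a screen library are stated in the sources used here. A library of the guides before implantation was not analysed here, so a guide that was lost as the cells grew and a guide that was scarce from the start cannot be told apart.

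The C57BL/6 library held 27142741 reads and the Rag1-knockout library 19114273, so that 10 CPM corresponded to 271 and 191 reads. The median guide had 1211 and 777.5 reads, and the 24 control guides lay between 10.6 and 229 CPM with a median of 73.8, none below 10 CPM. RNA libraries held 14240353 to 15515405 counts in cells and 19630410 to 32655739 in tumours. With 1 screen library per host there was no replicate, and intervals on guide reads cover counting error only, because reads without molecular identifiers are not independent molecules.

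Cells need a shared set of machines to grow: the spliceosome, the proteasome, ribosome assembly, nuclear pores, protein import into membranes, and pumps that hold ion gradients. Guides against such genes are commonly lost from a proliferating pool, whereas guides against genes that a cell type does not use are commonly kept. Odorant and taste receptor genes, which sensory neurons and taste cells use, belong to large families of similar sequence that lie in clusters on many chromosomes.

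Guides of a gene did not behave alike. All 4 guides lay below 10 CPM in 10 of the 86 genes, 3 guides in 41 and 2 in 35, which made 233 low guides and 111 at or above the threshold. Of the 18116 guides of all genes with 4 guides, 1607 (8.87%) were below 10 CPM. The best-represented guide of a gene ranged from 2.18 to 160 CPM with a median of 26.1, against a median of 90.1 CPM over all genes, and in 20 of the 86 genes it stood above the median of all guides, 44.9 CPM. The median was below 10 CPM in each host taken alone for 62 genes, while 18 reached 10 CPM or more in the C57BL/6 library and 6 in the Rag1-knockout library. Of the guides without a single read, 10 of 13 in the C57BL/6 library and 5 of 8 in the Rag1-knockout library belonged to these genes. A count of 0 allows up to 0.111 CPM in the first library and 0.157 CPM in the second, taken as 3 reads.

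The threshold cut through a continuous range. Just inside it were Olfr1136 (median 9.79 CPM), Mmgt1 (9.95) and Calcrl, a receptor subunit for calcitonin-family peptides (9.95). Just outside were Olfr1453 (10.1), Olfr994 (10.1) and Slco1a6 (10.2). Each of these 6 genes had 2 guides below 10 CPM. A threshold of 5 CPM would have kept 25 genes and one of 20 CPM 430.

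The RNA of control MC38 cells, which the rule did not use, divided the 86 genes into a group with a level in every library and a group without. In 43 of them (50%) RNA was at least 1 CPM in every control cell library, against 1191 of all 4529 genes (26.3%). Among genes with such a level the median was 78.8 CPM for the 43 and 31.7 CPM for all 1191, or 21.1 against 7.22 CPM per kilobase of exon. Of the remaining 43, 39 had no row in the gene table used here, and 22 of those were odorant, vomeronasal or bitter taste receptor genes. Another 3 were listed at 0 in the control cells: Mrgprx2, Lgr5, a receptor known from intestinal stem cells, and Xlr5b. Il18, a cytokine gene, stood at 0.492, 1.05 and 1.52 CPM, so that it missed 1 CPM in a single library.

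At the threshold of 10 CPM, the share of genes that met the rule was highest among those with 20 CPM or more of RNA. It was 17 of 246 genes with 100 CPM or more (6.91%) and 23 of 473 with 20 to 100 CPM (4.86%). It was 4 of 520 genes with 1 to 20 CPM (0.769%), 0 of 333 under 1 CPM and 3 of 814 listed at 0 (0.369%). Genes without an RNA row split in 2: odour, pheromone and taste receptors met the rule in 22 of 577 cases (3.81%) and other genes in 17 of 1566 (1.09%). At a threshold of 5 CPM the rule kept 18 genes with 20 CPM or more of RNA, 1 with 1 to 20 CPM, 0 with a row below 1 CPM and 6 without a row. At 20 CPM the order differed. Receptor genes without a row then had the highest share, 134 of 577 (23.2%). Genes with 100 CPM or more of RNA had 36 of 246 (14.6%), and those with 20 to 100 CPM 56 of 473 (11.8%). As a working description the 86 genes were taken to be likely fitness genes of MC38. Mrgprx2, Lgr5 and Xlr5b, listed at 0 in control cells, go against that label. For the 39 genes without a row, the 22 receptor genes included, the RNA table does not bear on it, and the label is not shown for them. Receptor genes without a row, known from sensory neurons and taste cells, had 16.5% of their guides below 10 CPM, against 8.87% of all guides.

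The guide levels in this paragraph are the values the rule selected on, with medians cut off at 10 CPM. Comparing them within the chosen genes is a description and does not bear on the label of likely fitness genes. Within the chosen genes, the expressed group had the lower guide levels. Its 43 genes included 6 with all 4 guides low, 22 with 3 and 15 with 2, and 18 of them had a median below 5 CPM. Their medians centred on 5.87 CPM and their best guides on 19.0 CPM. The 39 genes without a row included 4, 18 and 17 in the same order, 6 had a median below 5 CPM, and the centres were 7.52 and 30.5 CPM. Genes named in the next paragraph for nuclear and cytosolic work were picked after their values were seen, because the gene lists covered membrane and secretory functions.

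Snrpf and Psmd2 had all 4 guides low. Snrpf, on chromosome 10 (93583029 to 93589706, minus strand, GRCm38), encodes a ring protein of the spliceosomal particles. Its guides had 0, 70, 53 and 5 reads in C57BL/6 and 4, 3, 29 and 80 in Rag1-knockout tumours, and its best guide reached 2.18 CPM, the lowest best guide of the 86. Psmd2, on chromosome 16 (20651652 to 20663414, plus strand), encodes a scaffold subunit of the proteasome cap. Its 4 guides had 0, 102, 83 and 70 reads in C57BL/6 and 0, 15, 61 and 137 in Rag1-knockout tumours. No guide of Snrpf or Psmd2 passed 5 CPM as a mean of both hosts. Med24, a subunit of the Mediator of transcription, had guides at 0.210, 0.950, 4.90 and 10.1 CPM. Rrp12, Tex10 and Ppan, which act in ribosome assembly, had medians of 3.00, 5.87 and 6.75 CPM, and in each of them 1 guide stood above 10 CPM. The nuclear pore genes Nup205 and Nup93 had medians of 4.74 and 7.52 CPM, whereas Nup210, another pore gene and listed at 0 in control cells, had a median of 77.3 CPM and no guide below 10 CPM. Tbcd, a folding cofactor of tubulin, had a pair of guides at 0.484 and 1.37 CPM and another at 10.8 and 24.2 CPM, so its median of 6.07 CPM joined guides that disagreed.

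Of 4 screened genes of the V-ATPase, the proton pump that acidifies endosomes and lysosomes, 2 met the rule. Of all genes, 1.90% met it. Atp6ap1, an accessory subunit on chromosome X (74297097 to 74304721, plus strand), had 15, 21, 89 and 163 reads in C57BL/6 and 0, 120, 78 and 106 in Rag1-knockout tumours. All 4 of its guides were thus low, the highest at 5.78 CPM. Atp6ap2, the other accessory subunit, had guides at 0.600, 1.66, 2.18 and 15.8 CPM. The other 2 V-ATPase genes stood higher, Atp6v0e at 17.9 and Atp6v0e2 at 88.1 CPM, and Atp6v0e2 was listed at 0 in control cells. Outside the list and named after its value was seen, Rnasek, a small protein bound to the pump, had guides at 0.209, 0.934, 3.37 and 18.3 CPM. Vma21, a chaperone of pump assembly, had a median of 7.51 CPM, and Tmem199, another assembly factor, missed the rule at 22.7 CPM.

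Among 30 P-type pumps 3 met the rule (10%, against 1.90% of all genes). Atp2a2, the calcium pump of the endoplasmic reticulum, on chromosome 5 (122453513 to 122502225, minus strand), had 42, 0, 42 and 373 reads in C57BL/6 and 10, 43, 42 and 272 in Rag1-knockout tumours. Its 3 lower guides stayed below 2 CPM as means, and the other reached 14 CPM. Atp1b3, a beta subunit of the sodium pump, had guides at 3.02, 4.14, 11 and 26.0 CPM. The median over the 30 pumps was 39.4 CPM, against 46.6 CPM over all genes. Of their 120 guides, 15 (12.5%) were below 10 CPM, against 8.87% of all guides.

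Genes of membrane traffic included the gene with the lowest median of all. Snap23, a SNARE protein of fusion at the plasma membrane, on chromosome 2 (120567671 to 120601255, plus strand), had a median of 0.846 CPM. Its guides had 3, 33, 12 and 288 reads in C57BL/6 and 22, 4, 29 and 381 in Rag1-knockout tumours. The first 3 guides were below 1 CPM as means and the other stood at 15.3 CPM. Tmed5, a cargo receptor between endoplasmic reticulum and Golgi, and Gosr1, a Golgi SNARE, had medians of 8.52 and 8.98 CPM with 2 low guides each. These were the 3 that met the rule among 27 traffic genes (11.1%, against 1.90% of all genes). Copa, the alpha subunit of the COPI coat, on chromosome 1 (172082529 to 172122330, plus strand), was not on that list. Its 4 guides had 5, 121, 196 and 19 reads in C57BL/6 and 0, 5, 21 and 206 in Rag1-knockout tumours, all below 10 CPM as means.

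Protein insertion and glycosylation in the endoplasmic reticulum gave 4 genes. Dpagt1, which makes the starting sugar-lipid of N-glycosylation, on chromosome 9 (44326019 to 44333900, plus strand), had 0, 97, 189 and 161 reads in C57BL/6 and 9, 40, 13 and 72 in Rag1-knockout tumours. All 4 of its guides were low, whereas Alg11, a mannosyltransferase of the same pathway, had guides at 0.289, 2.90, 10.9 and 15.2 CPM. They were 2 of 22 N-glycosylation genes (9.09%, against 1.90% of all genes). Sec61g, a subunit of the protein-conducting channel, had guides at 0.662, 3.18, 7.99 and 10.7 CPM. Mmgt1, a subunit of the membrane insertase EMC, had guides at 1.36, 1.56, 18.3 and 42.2 CPM. With Sec61g it made 2 of 13 genes of translocation and insertion (15.4%). Emc1, another subunit of that insertase, missed the rule at 11 CPM. No gene of GPI anchor synthesis (of 16) or of endoplasmic reticulum degradation (of 9) met the rule, which 1.90% of all genes did. Single guides were below 10 CPM in 10.9% and 22.2% of cases there, against 8.87% of all guides.

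Lipid synthesis gave 4 of 28 genes (14.3%, against 1.90% of all genes). Cept1, which makes phosphatidylcholine and phosphatidylethanolamine, had 10, 8, 53 and 1255 reads in C57BL/6 and 33, 37, 8 and 258 in Rag1-knockout tumours. Its first 3 guides lay between 1.05 and 1.19 CPM and the other at 29.9 CPM. Cdipt, the synthase of phosphatidylinositol, had guides at 1.60, 2.65, 7.08 and 26.3 CPM. Hsd17b12, a reductase of fatty acid elongation, had guides at 1.02, 4.09, 7.15 and 17.9 CPM. Kdsr, a reductase of sphingolipid synthesis, had guides at 2.11, 4.79, 9.47 and 10.8 CPM. Pi4ka, a kinase of phosphatidylinositol at the plasma membrane and not on the list, had a median of 7.50 CPM. Pisd, which makes phosphatidylethanolamine in mitochondria, missed the rule at 10.5 CPM.

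Mbtps1, the gene depleted in the RNA experiments, was the only 1 of 11 SREBP and sterol genes to meet the rule. That is 9.09% of the list, against 1.90% of all genes. Mbtps1 encodes site-1 protease, which cuts the SREBP factors in the Golgi. It lies on chromosome 8 (119508156 to 119558735, minus strand). Its 4 guides had 0, 0, 96 and 66 reads in C57BL/6 and 0, 17, 24 and 551 in Rag1-knockout tumours, means of 0, 0.445, 2.40 and 15.6 CPM. The first guide was without a read in both libraries, and most of the reads in Rag1-knockout tumours came from its best guide. Scap, the escort of SREBP to the Golgi, stood just outside at 10.6 CPM. The gene listed as 2410131K14Rik, which RefSeq also names Spring1, a cofactor of site-1 protease, had guides at 5.36, 7.50, 10.5 and 28.0 CPM. It was outside the list and was named after its value was seen. Insig2, which holds SREBP in the endoplasmic reticulum, had a median of 118 CPM, with all 4 guides above 90 CPM.

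Mitochondrial genes gave 3 genes from 2 lists. Timm23, a channel of protein import, had guides at 0, 0.631, 15 and 27.4 CPM and was 1 of 20 import and carrier genes (5%). Of the guides of that list, 6.25% were below 10 CPM, against 8.87% of all guides. Cox7b, a subunit of cytochrome oxidase, had guides at 2.39, 3.14, 12.6 and 13 CPM. Cox7b2, its paralogue known from testis, had guides at 2.7, 3.80, 9.73 and 29.7 CPM and no RNA row. These were 2 of 19 respiratory genes (10.5%, against 1.90% of all genes). Sco2, a copper chaperone of the same enzyme and not on the list, had a median of 8.74 CPM, and Sco1, its paralogue, missed the rule at 10.3 CPM.

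Cell-surface proteins of 3 further lists gave 5 genes. Pdgfra, a receptor for platelet-derived growth factor, on chromosome 5 (75152292 to 75198215, plus strand), had 114, 118, 82 and 354 reads in C57BL/6 and 45, 88, 153 and 68 in Rag1-knockout tumours. All 4 guides were low in the mean, at 3.28 to 8.30 CPM. Met, the receptor of hepatocyte growth factor, had guides at 2.62, 3.82, 9.98 and 43.6 CPM. Itgb8, an integrin subunit, had guides at 4.18, 7.96, 10 and 28.2 CPM. These were 3 of 32 growth factor receptors and integrins (9.38%, against 1.90% of all genes). The median of that list, 50.4 CPM, was above that of all genes. Tfrc, which takes up transferrin iron, had guides at 1.40, 3.65, 4.20 and 33.8 CPM and was 1 of 38 nutrient transporters (2.63%). In that list 9.21% of guides were below 10 CPM, near the 8.87% of all guides. Cd47, a surface signal that restrains phagocytes, had guides at 1.92, 5.16, 14 and 60.3 CPM. It was 1 of 13 genes (7.69%) on a list that set Cd47 beside genes of the interferon gamma receptor and antigen presentation. Tapbp, a loading factor of MHC class I, missed the rule at 10.9 CPM. None of 8 leukocyte markers, 4 BCL2 family genes, 3 vessel markers or 2 nuclear envelope genes met the rule, which 1.90% of all genes did. Single guides were below 10 CPM in 3.1%, 0%, 8.33% and 0% of cases there, against 8.87% of all guides. These lists are too small for their lack of such genes to be read as a result.

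The second large group were chemosensory receptors. Of 580 odour, pheromone and taste receptor genes, 22 met the rule (3.79%), and 16.5% of all their guides were below 10 CPM against 8.87% of the guides of all genes. Olfr39 was the lowest, with 4, 11, 47 and 296 reads in C57BL/6 and 8, 16, 27 and 133 in Rag1-knockout tumours. All 4 guides were also low in Olfr935 (3.06 to 5.69 CPM), Olfr1431 (3.45 to 7.55 CPM) and the bitter taste receptor gene Tas2r124 (5.34 to 9.71 CPM). Tas2r106 had guides at 1.08, 1.84, 2.20 and 26.2 CPM. Olfr19 and Olfr843 had medians of 3.83 and 4.61 CPM and 3 low guides each. The median of Olfr39, 1.10 CPM, was the lowest of the 86 after that of Snap23, although the gene has no RNA row.

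The positions of the receptor genes were looked at after the values were seen. Bitter taste receptors met the rule in 5 of 31 cases (16.1%), all 5 among the 30 of these genes on chromosome 6. Tas2r106 (131677960 to 131678886) and Tas2r105 (131686532 to 131687495) were neighbours 7.65 kb apart. Odorant receptors on chromosome 9 met it in 7 of 53 cases (13.2%) and those on other chromosomes in 9 of 481 (1.87%), close to the 1.90% of all genes. Single guides of these receptors were below 10 CPM in 24.5% of cases on chromosome 9 and in 14.7% on other chromosomes. Both shares were above the 8.87% of all guides. Olfr507, Olfr780, Olfr722, Olfr19, Vmn1r235 and Olfr1431 were each the only receptor gene of the 22 on its chromosome. Of the 7, Olfr869, Olfr872 and Olfr39 lay in one stretch between 20129009 and 20287578, with gaps of 98.4 and 20.7 kb. Guide sequences are not in the tables used here, so how many sites in the genome a guide of these families matches was not tested.

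On chromosome X, 5 of 23 genes with 20 CPM or more of RNA met the rule (21.7%), against 35 of 696 on autosomes (5.03%). The 5 were Atp6ap1, Atp6ap2, Vma21, Cox7b and Mmgt1, of which 3 serve the proton pump. This split was made after the values were seen and rests on few genes.

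In some genes a single guide was well represented, and the 5 with the highest best guide are the top of a continuous range. Olfr869, at 73.0 CPM, came next. Mmp20, a protease of tooth enamel, had 9, 24, 325 and 4747 reads in C57BL/6 and 4, 236, 25 and 2779 in Rag1-knockout tumours. Its best guide, at 160 CPM, was far above the other 3, at 0.270 to 6.64 CPM. Mrgprx2, a mast cell receptor gene, had guides at 2.41, 2.61, 12.8 and 143 CPM. Il5ra (best guide 92.5 CPM), Tas2r113 (82.9) and Gm13177 (76.9) completed the 5 highest. Mrgprx2 was listed at 0 in control cells and the other 4 had no RNA row. The expressed gene with the highest best guide was Cd47, at 60.3 CPM.

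Guide levels went together in both hosts, and the ratio between hosts was a measure the rule did not fix. Across the 344 guides the correlation of log2(CPM + 1) between the hosts was 0.739 (Pearson), and 0.779 across all guides. These are descriptions, since guides of a gene share their target and all guides of a host share 1 library. The median over genes of the log2 ratio of C57BL/6 to Rag1-knockout tumours, with a pseudocount of 1 CPM, was 0.31, against 0.12 over all genes. On the summed reads of the 4 guides, 11 of the 86 genes were more than 2-fold higher in C57BL/6, where 3.11% of all genes were, and 6 were more than 2-fold higher in Rag1-knockout tumours, where 3.36% were. Together these were 17 genes (19.8%), against 35 of 344 genes (10.2%) with a median of 10 to 20 CPM, so the share past 2-fold was larger where guides had fewer reads. All 4 guides were higher in C57BL/6 in 9 genes (10.5%, against 10% of all genes) and in Rag1-knockout tumours in 1 (1.16%, against 4%).

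Several of the largest host ratios hung on 1 guide. Mbtps1 had 162 summed reads in C57BL/6 and 592 in Rag1-knockout tumours, or 5.97 CPM (95% Poisson interval 5.08 to 6.96) against 31.0 (28.5 to 33.6), 5.19-fold higher in Rag1-knockout tumours. Without its best guide the sums were 96 and 41 reads, and C57BL/6 was 1.65-fold higher, so the direction turned. Atp6ap2 and Met, 3.10- and 2.56-fold higher in Rag1-knockout tumours, turned in the same way without their best guides, to 2.14- and 2.41-fold higher in C57BL/6. Nup93 kept its side: it was 3.33-fold higher in Rag1-knockout tumours, each of its 4 guides was higher there, and it was 1.56-fold higher without the best guide. Olfr869 (3.70-fold), Vma21 (3.32-fold) and Xlr5b (3.05-fold) were higher in C57BL/6 and stayed so without any 1 guide, at 1.17-fold at the least for Vma21. In all, 12 of the 17 kept their side without any 1 guide. Each ratio compares 2 libraries and not the 2 kinds of host.

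In cultured cells, 8 of the 44 genes that could be tested passed as changed with depletion of Mbtps1, where 1111 of all 11905 genes did. The comparison asked which genes differ between knockdown and control cells. Of 44 that could be tested, 3 were higher (6.82%, where 3.76% of all 11905 genes were) and 5 were lower (11.4%, where 5.57% of all genes were), by edgeR's quasi-likelihood test with Benjamini-Hochberg adjustment over all genes, and 36 did not pass. Among all screened genes the shares were 6.91% higher and 8.26% lower. The median log2 fold change was -0.05, against 0.01 over all genes. The tested genes are those with enough counts, not all 86, and whether replicates came from different cultures or mice is not stated, so the p-values here reflect the spread between libraries, which may be technical.

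Mbtps1 itself stood at 129, 135 and 118 CPM in control cells and 37.0, 35.7 and 34.8 CPM in knockdown cells and was lower in every knockdown library, as the labels say; it is 1 of the 5 lower genes. Snap23 fell from 49.6, 44.6 and 50.6 CPM to 33.3, 31.7 and 29.0 CPM, a log2 fold change of -0.63 (SE 0.11, edgeR adjusted p = 0.00483). The groups did not overlap, so the gene with the scarcest guides was also lower in RNA when Mbtps1 was depleted. Copa, at 586, 579 and 551 CPM in control cells, fell to 448, 463 and 398 CPM (log2 fold change -0.40, SE 0.09, edgeR adjusted p = 0.0217). Pdgfra and Gosr1 fell by 0.39 each on the log2 scale (edgeR adjusted p = 0.0319 and 0.0396). Among the higher genes, Snrpf rose from 75.1, 77.7 and 80.7 CPM to 120, 106 and 145 CPM (log2 fold change 0.66, SE 0.11, edgeR adjusted p = 0.00514). Ppan (0.51) and Cox7b (0.42) rose as well, without overlap between the groups. Mbtps1, Snap23 and Snrpf passed whichever library was left out. Without control replicate 1, 3 of the 44 passed, without control replicate 2, 5, and without knockdown replicate 1, 4. With the replicate number as a block 4 passed. Copa and Pdgfra lost the call without control replicate 1, control replicate 2 or knockdown replicate 1, Cox7b without any control replicate or knockdown replicate 1, Ppan without control replicate 1, and Gosr1 without any 1 library.

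In tumours, with more libraries per group, more of the genes passed than in cells, and more were higher than lower. Of 46 tested, 13 were higher in knockdown tumours (28.3%, where 20.1% of all 13997 genes were) and 6 were lower (13%, where 18.3% of all genes were), and 27 did not pass by edgeR's test. Among all screened genes the shares were 18.4% higher and 21.3% lower. The median log2 fold change of the 46 was 0.09, against 0.02 over all genes. In a bulk tumour, fewer cells of a type and less RNA per cell cannot be told apart. The 11 leukocyte marker genes with a row summed to 919 to 1999 CPM in control tumours and 976 to 1954 CPM in knockdown tumours, and 5 of 10 tested were higher and 0 lower. Vessel and mural markers summed to 155 to 191 CPM and 102 to 156 CPM, with 2 of 6 lower. In cultured control cells the leukocyte markers summed to 0.210 to 0.843 CPM, with 9 at 0, Ptprc, Cd3e and Itgam among them. The part of these other cells in the tumour differences was not tested.

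Lower in knockdown tumours were Mbtps1, Pi4ka, Pdgfra, Copa, Tbcd and 2410131K14Rik. Mbtps1 stood at 110 to 130 CPM (median 122) in 5 control tumours and at 41.4 to 57.1 CPM (median 54.1) in 5 knockdown tumours, a log2 fold change of -1.21 (SE 0.09, edgeR adjusted p = 1.16e-05). Pi4ka stood at 62.5, 56.9, 64.4, 61.5 and 61.7 CPM in control tumours and at 45.2, 36.2, 38.9, 45.4 and 36.1 CPM in knockdown tumours (log2 fold change -0.59, SE 0.08, edgeR adjusted p = 2.41e-04). All knockdown tumours lay below all control tumours. Pdgfra went from 149, 183, 196, 179 and 190 CPM to 123, 102, 127, 134 and 123 CPM (-0.55, SE 0.09, edgeR adjusted p = 8.91e-04), again without overlap. Copa fell by 0.43 and Tbcd by 0.65 on the log2 scale. Mbtps1, Copa and Pdgfra passed as lower in both cells and tumours with all libraries, although in cells Copa and Pdgfra lost the call in 3 of 6 fits that left out 1 library (edgeR adjusted p up to 0.115 and 0.172) and with the replicate block (0.0689 and 0.0712). The gene listed as 2410131K14Rik fell by 0.39 (edgeR adjusted p = 0.0265) and lost the call without control replicate 4 or 5 or without knockdown replicate 3 or 5, where its adjusted p went up to 0.0670.

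Higher in knockdown tumours were 13 genes, with Cept1, Tmed5 and Cd47 changed the most. Cept1 rose from 28.4, 29.8, 29.2, 25.2 and 25.7 CPM to 40.9, 43.4, 53.1, 41.7 and 69.9 CPM (log2 fold change 0.87, SE 0.14, edgeR adjusted p = 7.34e-04). Tmed5 rose from 29.3, 37.8, 35.3, 31.5 and 31.7 CPM to 50.2, 51.2, 52.9, 57.7 and 71.2 CPM (0.79, SE 0.11, edgeR adjusted p = 2.74e-04). Cd47 rose from 105, 120, 111, 104 and 101 CPM to 146, 157, 188, 173 and 226 CPM (0.73, SE 0.11, edgeR adjusted p = 5.14e-04). In each of these 3 genes every knockdown tumour was above every control tumour, and knockdown replicate 5 was the highest. Tfrc rose by 0.41, from 108 to 134 CPM in control tumours to 143 to 168 CPM in knockdown tumours. The pump genes Vma21 (0.49), Atp6ap2 (0.39) and Atp1b3 (0.36), the glycosylation gene Alg11 (0.33) and Il18 (0.62) rose as well. Nup205, Cr1l, Timm23 and Met passed with all libraries but lost the call when some libraries were left out. Of the 19 genes called, 14 passed whichever 1 library was left out. Snap23 and Snrpf, which passed in cells, did not pass in tumours (log2 fold changes -0.30 and 0.35, edgeR adjusted p = 0.149 and 0.0547), and the difference between cells and tumours was not tested.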

How the data were processed

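RNA was measured in cells and tumours and guides in tumours of both hosts. The authors deposited raw integer read counts, by gene symbol in the RNA table and by guide in the screen table. Tools listed in the submitters' processing notes, with no roles given, were HTSeq 0.13.5, STAR 2.7.1a, cutadapt 1.18, FastQC 0.11.9, Cufflinks 0.17.3 and SAMtools 1.3.1. The notes name hg38 although the symbols are mouse. The alignment build, strand use and guide counting are not given in the sources used here. Per the labels' protocols, RNA was captured on beads and made into Illumina libraries. RNA levels at 0 are listed values.

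Guide CPM is reads over the library total. Guide ratios used a pseudocount of 1 CPM and guides with at least 20 reads. RNA was tested with edgeR 4.0.16 in R 4.3.3 (TMM, filterByExpr, glmQLFit, glmQLFTest, two-sided, adjusted p under 0.05), within cells and within tumours, checked on simulated counts. Other tools were pandas 2.3.3, numpy 2.4.6 and scipy 1.17.1, with DESeq2 1.42.0 as an alternative. Screen symbols matched RNA rows in 2328 genes directly and 58 through RefSeq synonyms, with 2143 unmatched (46, 1 and 39 of the 86). Coordinates are GENCODE M21, GRCm38. Samples were grouped by title. Same-numbered replicates correlated between -0.20 and 0.16, so the numbers were not taken to pair them.

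Named genes were the 12 lowest medians, up to 5 per list, the 5 highest best guides, 3 on each side of the threshold, up to 5 per direction of each RNA comparison, the 5 highest RNA levels per kilobase and those near 0, 6 receptors and 4 host ratios; others are said to be picked after their values were seen. A result for a gene this selection names is left out of the text and not reported here. The genes and lists were chosen with earlier results of these data known. Alternatives were other thresholds, single libraries, scalings, filters, pseudocounts, left-out replicates and a replicate block.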

Additional observations from a re-analysis of the deposited data

Results flagged for a closer look

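Of 76 groups of tumours examined, control and knockdown, 3 held a library far from the others, all 3 of them control tumours. Chance gives about 1 group in 20, so these 3 are no more than chance gives and are not shown to be unusual. Cox7b reached 250 CPM in 1 control tumour, against a median of 182.7. Timm23 reached 157 CPM against a median of 140.9. Lgr5 reached 1.97 CPM against a median of 0.764.

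Among the genes described here, control and knockdown libraries did not overlap in 19 of 44 tested in cells and in 13 of 46 in tumours. The share of all genes with such groups, or with opposite sides in cells and tumours, was not computed. The 3 genes below are therefore not shown to be unusual. In 3 genes knockdown libraries all lay below control in cells and all above control in tumours. The 3 passed edgeR's test in tumours but not in cells (adjusted p = 0.486 for Atp6ap2, 0.0999 for Cd47 and 0.0842 for Tmed5), and the difference itself was not tested. Atp6ap2 had a log2 fold change of -0.102 in cells and 0.393 in tumours. Cd47 had -0.26 in cells and 0.735 in tumours. Tmed5 had -0.37 in cells and 0.787 in tumours.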

How the results depend on the processing

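The number of genes meeting the rule was 86, and it was 25 at 5 CPM, 430 at 20 CPM, 38 by the mean over the guides and 10 when all 4 guides had to be low. By the C57BL/6 library alone it was 104 (68 shared), and by the Rag1-knockout library alone 127 (80 shared). Genes with all 4 guides low numbered 3 at 5 CPM and 35 at 20 CPM, against 10. The median log2 ratio between the hosts, 0.31, was 0.33 with a pseudocount of 0.5 CPM, 0.19 with 5 CPM, 0.28 with no read minimum, 0.34 with at least 50 reads, 0.25 for the sum of the guides and 0.21 when scaled to the median guide. The number of the genes with RNA of at least 1 CPM in every control library was 41 to 44. In cells, leaving out 1 library gave 3 to 8 called genes of the 86, against 8, and 290 to 1531 among all genes, against 1111. With the replicate block there were 4 and 508, and in tumours 18 and 4746, against 19 and 5377. The replicate numbers were not taken to pair the samples, and whether they do is not stated. In tumours, leaving out 1 library gave 14 to 23 and 4069 to 5833. Of 527 values of single genes in cells under all settings, 21 lost the call, 4 gained it and 0 reversed, and of 734 in tumours 27 lost it, 19 gained it and 0 reversed. The settings chosen after seeing the data were the RNA classes at 5 and 20 CPM and by single library, and exact symbols only, which gave 42 expressed genes. The planned count of genomic sites per guide was not run, because guide sequences are not in the tables used here. Screen depth limits the low guides: 10 CPM is 271 reads in one library and 191 in the other.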
